A study of Mus musculus with 20 samples.

Results

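The SIRP, TREM and C-type lectin receptors are surface proteins with which macrophages, monocytes and neutrophils read the state of neighbouring cells and of microbial or damaged material. From this group, 10 genes of the 25219 in the deposited table were followed in the fat of mice that lost α4 in adipocytes, and all 10 were found in the table by gene symbol. They are Sirpa, Sirpb1a and Sirpb1b, the SIRP ligand gene Cd47, the adaptor gene Tyrobp, Trem1, Pirb, Clec4d, Clec4e and Clec7a. RNA was sequenced from inguinal white adipose tissue (iWAT) and brown adipose tissue (BAT) of male mice, with 5 libraries in each of 4 groups. Ai-α4KO mice carried floxed alleles of Igbp1, the gene for α4, together with Adiponectin-CreERT2, a tamoxifen-activated recombinase under the promoter of an adipocyte gene. Control mice carried the floxed alleles without the transgene, although the deposited labels call them WT. Both genotypes had a mixed C57Bl/6 background and both received tamoxifen, 5 injections of 100 mg/kg over 6 days from 2 months of age, and tissue was taken 1 week after recombination. The deletion is therefore directed at adipocytes, whereas the receptors studied here are, apart from the broadly expressed Cd47, genes of myeloid cells. The labels do not say whether the same mouse gave both tissues, so p-values measure the spread between these libraries.

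SIRPα is an inhibitory receptor of myeloid cells. When it binds CD47 on another cell, its cytoplasmic motifs recruit the phosphatases SHP-1 and SHP-2 and engulfment of that cell is restrained, which is why CD47 is called a "do not eat me" signal. The SIRPβ1 proteins have no such motifs and signal through DAP12, the product of Tyrobp, an adaptor that carries an ITAM, the tyrosine motif to which the kinase Syk binds. TREM-1 also signals through DAP12 and amplifies inflammatory responses of neutrophils and monocytes, while PIR-B is an inhibitory receptor that binds MHC class I. The C-type lectins Mincle (Clec4e) and MCL (Clec4d) signal through the Fc receptor γ chain, and Dectin-1 (Clec7a) binds β-glucans with its lectin domain and signals through a tyrosine motif in its own cytoplasmic tail. These lectins share a route from Syk to Card9, Bcl10 and Malt1. Mincle is known in fat from the macrophages that surround dying adipocytes.

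The libraries held 24023371 to 50384446 counts (median 32076298), and totals did not differ between genotypes beyond their spread (two-sided p = 0.37 for iWAT and 0.31 for BAT in an exact permutation test). Igbp1 had log2 fold changes of -2.65 in iWAT and -2.5 in BAT (adjusted p = 4.99e-08 and 2.2e-07, from the quasi-likelihood test of edgeR after Benjamini-Hochberg correction). Brown adipocyte markers (Ucp1, Cidea and Dio2) summed to 7384 to 11444 CPM (gene counts put on the same total for each library) in Control BAT against 76.5 to 797 in Control iWAT, and adipocyte markers were present in every group. The adipocyte markers moved against the receptors, 5 of 7 being lower in Ai-α4KO libraries of each tissue, with summed medians of 27288 CPM in Control and 11030.3 CPM in Ai-α4KO iWAT and of 22749 and 14072 CPM in BAT. Brown adipocyte markers summed to 1285 to 2697 CPM in Ai-α4KO BAT and 3.87 to 13.4 in Ai-α4KO iWAT, with 2 of 3 lower in each tissue. The part of these markers in the results below was not tested. Some libraries stood apart by markers of other cells. B cell markers reached 385 and 156 CPM in Control iWAT libraries 1 and 4, in a group whose median was 7.16. The markers of skeletal muscle ran from 823 to 8874 CPM in Control BAT against 11713 to 36764 in Ai-α4KO BAT. No markers of any of the lists examined were at 0 throughout a group.

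All 10 genes rose in Ai-α4KO fat, in iWAT and in BAT. Calls required an adjusted p under 0.01 together with a change of 2-fold or more. At these thresholds 11.3% of the 14604 genes tested in iWAT and 18.2% of the 14344 tested in BAT were higher in Ai-α4KO libraries, and 10.7% and 13.3% were lower. The log2 fold changes of the 10 ran from 1.33 to 4.51 in iWAT, with a median of 3.39 against 0.01 over all genes tested. In BAT they ran from 1.58 to 6.54, with a median of 4.78 against -0.03. For each of the 10 genes every Ai-α4KO library lay above every Control library of its tissue, an arrangement in this direction that 17.9% of the genes tested showed in iWAT and 23.3% in BAT. The exact permutation test over the 5 libraries against 5 gave p = 0.0079 for each gene and tissue, the smallest value it can give. Macrophage markers rose as well, 9 of 11 in iWAT and 10 of 11 in BAT, and their summed level went from 1473 to 2421 CPM in Control to 7955 to 10488 in Ai-α4KO iWAT, and from 267 to 640.3 to between 4429 and 7683 CPM in BAT. Of 5 dendritic cell markers, 1 rose in iWAT, and in BAT 4 rose and 1 fell. Their summed level went from between 24 and 40.6 CPM to between 45.4 and 69.3 in iWAT and from between 12 and 16 to between 29.7 and 39.3 in BAT. Of 5 T cell markers, 3 rose in BAT, where their sum went from between 2.16 and 4.14 CPM to between 12.7 and 52.2. None passed the test in iWAT, where the sums overlapped through Control libraries 1 and 4, at 156 and 181 CPM. The other Control iWAT libraries were at 6.58 to 7.79 CPM, and the Ai-α4KO iWAT libraries at 11 to 42.7. The part of these cells in the change of the receptors was not tested. In whole tissue, more cells of a type and more RNA per cell cannot be told apart. The plot of single libraries shows the gap between genotypes for each gene.

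**Figure D1:**
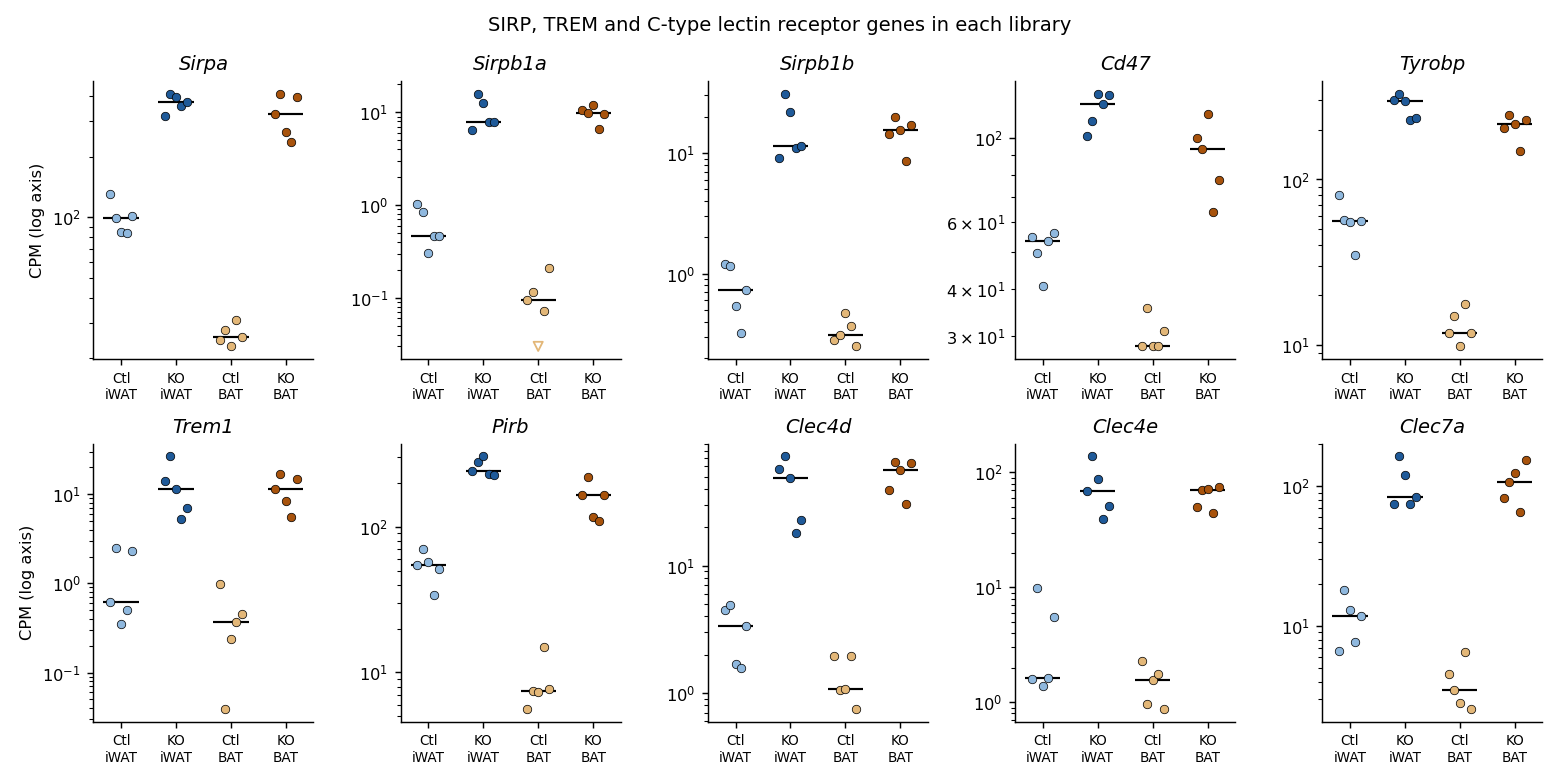
CPM of each of the 10 receptor genes in each library (log axis, 1 point per library, horizontal bars are medians of 5 libraries, Ctl is Control and KO is Ai-α4KO). The open triangle marks 1 Control BAT library with 0 counts of Sirpb1a, and in every panel the Ai-α4KO libraries of a tissue lie above its Control libraries.

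Sirpa (Entrez 19261) lies on the plus strand of chromosome 2 from 129592839 to 129632228 in the mm10 coordinates of the deposited table. In iWAT it was at 131, 98.8, 84.5, 83.7 and 102 CPM in the Control libraries and at 319, 411, 395, 356 and 375 CPM in the Ai-α4KO libraries. In BAT it was at 24.6, 27.5, 22.9, 30.9 and 25.4 CPM in Control and at 324, 410.4, 266, 236 and 395 CPM in Ai-α4KO. The Control libraries of BAT were all below those of iWAT, whereas the Ai-α4KO libraries of the tissues overlapped. The log2 fold change was 1.99 in iWAT (standard error 0.15, adjusted p = 3.55e-06) and 3.64 in BAT (standard error 0.17, adjusted p = 5.25e-08, edgeR's quasi-likelihood test here and below).

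Cd47 (Entrez 16423), on the plus strand of chromosome 16 from 49855654 to 49911683, is the ligand of SIRPα and the gene of the 10 that is expressed by nearly all cell types. Its CPM in iWAT was 54.8, 49.6, 40.6, 53.5 and 56.1 in Control and 101, 111, 131, 123 and 129.8 in Ai-α4KO. In BAT it was 28.3, 35.6, 28.2, 28.2 and 30.9 in Control and 99.8, 93.4, 116, 63.9 and 77.6 in Ai-α4KO. Cd47 had the smallest change of the 10 genes in both tissues, with a log2 fold change of 1.33 in iWAT (standard error 0.12, adjusted p = 8.43e-06) and 1.58 in BAT (standard error 0.16, adjusted p = 3.91e-06). The 95% interval of the difference between these changes ran from -0.14 to 0.70.

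Sirpb1a (Entrez 320832) and Sirpb1b (Entrez 668101) lie near each other on the minus strand of chromosome 3, from 15371827 to 15426427 and from 15495754 to 15575065. They encode SIRPβ1 proteins that signal through DAP12. The 200 bases before their starts are shown because the genes are close relatives that moved together and the resemblance reaches into the upstream sequence. The sequences come from RefSeq on GRCm38.p6, the build also named mm10, at chr3:15426428-15426627 for Sirpb1a and chr3:15575066-15575265 for Sirpb1b, both on the minus strand and written 5′ to 3′ in the direction of the gene.
Sirpb1a: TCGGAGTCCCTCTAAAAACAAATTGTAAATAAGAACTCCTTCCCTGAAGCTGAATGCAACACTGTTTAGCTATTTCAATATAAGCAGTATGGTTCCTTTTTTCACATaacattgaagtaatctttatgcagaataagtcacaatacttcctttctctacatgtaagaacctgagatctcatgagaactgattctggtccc
Sirpb1b: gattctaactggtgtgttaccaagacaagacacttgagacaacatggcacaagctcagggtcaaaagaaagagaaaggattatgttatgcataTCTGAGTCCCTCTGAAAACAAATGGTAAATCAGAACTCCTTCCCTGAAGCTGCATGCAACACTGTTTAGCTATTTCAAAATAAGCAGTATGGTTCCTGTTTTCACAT
The capitals mark the block that aligns, 107 columns with 100 identical bases (93.5%). It runs from -200 to -94 relative to the annotated start of Sirpb1a and from -107 to -1 relative to that of Sirpb1b, so the shared sequence sits at different distances from the annotated starts.

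Sirpb1a was very low in Control fat and lowest in BAT. Its iWAT libraries were at 1.02, 0.837, 0.308, 0.47 and 0.459 CPM in Control and at 6.49, 15.9, 12.7, 7.91 and 7.85 CPM in Ai-α4KO, so that the log2 fold change there was 4.12 (standard error 0.40, adjusted p = 1.22e-05) and 2.67 with limma on log2(FPKM + 1). In BAT the Control libraries were at 0.094, 0.117, 0, 0.0731 and 0.208 CPM and the Ai-α4KO libraries at 10.6, 9.75, 11.9, 6.55 and 9.52 CPM. The 5 Control BAT libraries together held 12 counts (exact Poisson 95% interval 6.2 to 21) and 1 of them held 0, which allows up to 3. The fitted log2 fold change in BAT was 6.54 (standard error 0.40, adjusted p = 1.15e-07), and limma gave 2.93 for Sirpb1a on log2(FPKM + 1), a scale that understates the change of low genes, and 5.53 on log2(FPKM + 0.1). The ratio of the summed counts, scaled to library totals with TMM factors, was 95.6 with a 95% interval of 54.5 to 185 that covers counting error only.

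Sirpb1b showed the same order of groups at slightly higher levels. Its iWAT libraries were at 1.21, 1.16, 0.54, 0.323 and 0.735 CPM in Control and at 9.14, 31, 22, 10.9 and 11.5 CPM in Ai-α4KO. In BAT the Control libraries were at 0.282, 0.311, 0.469, 0.366 and 0.25 CPM, 40 counts in all, and the Ai-α4KO libraries at 14.5, 19.7, 15.5, 8.59 and 16.9 CPM. The log2 fold change was 4.51 in iWAT (standard error 0.48, adjusted p = 2.14e-05) and 5.47 in BAT (standard error 0.28, adjusted p = 5.8e-08). The split of reads between these genes is uncertain. Of the 150-base windows of the longest GENCODE M21 coding transcript, 12.1% for Sirpb1a and 32.3% for Sirpb1b occur without a mismatch in another gene, namely Sirpb1c and each other, and many deposited counts of these genes are fractions. Sirpb1c, listed in the table under an older locus name, had log2 fold changes of 4.52 in iWAT and 5.93 in BAT (standard errors 0.48 and 0.34).

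Tyrobp (Entrez 22177) lies on the plus strand of chromosome 7 from 30413788 to 30417579 and encodes DAP12, the adaptor through which the SIRPβ1 and TREM receptors signal. Its CPM in iWAT was 80.7, 56.7, 55.7, 34.8 and 56.1 in Control and 303, 329.7, 298, 229 and 235 in Ai-α4KO. BAT gave 11.9, 15, 9.81, 17.7 and 11.9 in Control and 204, 245, 216, 148 and 229 in Ai-α4KO. The highest Control BAT library was below the lowest Control iWAT library. Tyrobp had log2 fold changes of 2.40 in iWAT (standard error 0.21, adjusted p = 7.38e-06) and 3.98 in BAT (standard error 0.19, adjusted p = 5.43e-08).

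Trem1 (Entrez 58217), on the plus strand of chromosome 17 from 48232739 to 48246924, encodes a DAP12-coupled receptor that amplifies inflammatory signals. It was low and uneven in Control fat, at 0.614, 2.51, 0.347, 0.499 and 2.3 CPM in iWAT, where the Ai-α4KO libraries were at 14, 26.6, 11.5, 5.23 and 7.1 CPM. In BAT the Control libraries were at 0.987, 0.0389, 0.235, 0.366 and 0.458 CPM and the Ai-α4KO libraries at 11.6, 16.7, 8.4, 5.52 and 14.9 CPM. The coefficient of variation in Control libraries, 84.3% in iWAT and 85.3% in BAT, was among the highest of the 10 genes, and 1 Control BAT library held a single count. Trem1 had log2 fold changes of 3.48 in iWAT (standard error 0.64, adjusted p = 8.8e-04) and 4.80 in BAT (standard error 0.53, adjusted p = 9.04e-06).

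Pirb (Entrez 18733) lies on the minus strand of chromosome 7 from 3712505 to 3720382 and encodes an inhibitory receptor for MHC class I. In iWAT it was at 55, 70.4, 57.7, 33.8 and 51.6 CPM in Control and at 242, 277, 304, 229 and 225 CPM in Ai-α4KO. BAT libraries were at 5.6, 7.47, 7.37, 15 and 7.74 CPM in Control and at 166, 221, 117, 110.2 and 164 CPM in Ai-α4KO. Control BAT replicate 4 was well above the other Control BAT libraries and still far below the Ai-α4KO libraries. Fitted by edgeR, the log2 fold change of Pirb was 2.36 in iWAT (standard error 0.18, adjusted p = 4.03e-06) and 4.17 in BAT (standard error 0.29, adjusted p = 2.64e-07). Of the 150-base windows of its transcript, 16.9% occur in relatives such as Pira2 and Lilra6, so some reads may have been shared with them.

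Clec4d (Entrez 17474, plus strand) and Clec4e (Entrez 56619, minus strand) are neighbours on chromosome 6, from 123262107 to 123275268 and from 123281789 to 123289871. They encode MCL and Mincle, lectins that can pair with each other and recognise glycolipids of microbes, Mincle also a product of dead cells. In iWAT Clec4d was at 4.49, 4.9, 1.7, 1.56 and 3.37 CPM in Control and at 57.3, 72, 48.5, 17.9 and 23 CPM in Ai-α4KO. In BAT it was at 1.97, 1.05, 1.08, 1.94 and 0.749 CPM in Control and at 39.5, 65.3, 56.5, 30.4 and 63.4 CPM in Ai-α4KO. The log2 fold change of Clec4d was 3.87 in iWAT (standard error 0.48, adjusted p = 5.33e-05) and 5.23 in BAT (standard error 0.32, adjusted p = 1.21e-07).

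Clec4e was at 1.61, 9.92, 1.39, 1.62 and 5.51 CPM in Control iWAT and at 69.3, 138, 88.3, 39.3 and 50.9 CPM in Ai-α4KO iWAT. In BAT it was at 2.3, 0.972, 1.55, 1.75 and 0.873 CPM in Control and at 49.6, 70.7, 71.6, 44.5 and 74.7 CPM in Ai-α4KO. Control iWAT replicates 2 and 5 were above the other Control libraries, and these are the libraries in which Trem1 was highest too. The log2 fold change of Clec4e was 4.39 in iWAT (standard error 0.62, adjusted p = 1.46e-04) and 5.40 in BAT (standard error 0.28, adjusted p = 5.83e-08). Without Control iWAT replicate 2 the iWAT value was 5.04 (adjusted p = 7.7e-05), and the difference between the tissues' changes was 0.38 (adjusted p = 0.688) in place of 1.04. That difference was 1.64 without Control iWAT libraries 1 and 4 (adjusted p = 0.111) and 0.22 with limma on log2(FPKM + 1) (adjusted p = 0.795).

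Clec7a (Entrez 56644), on the minus strand of chromosome 6 from 129461591 to 129472777, encodes Dectin-1, the receptor for fungal β-glucan. In iWAT it was at 6.67, 18, 13.1, 7.7 and 11.7 CPM in Control and at 74.6, 164, 120.1, 75.3 and 83.7 CPM in Ai-α4KO. In BAT Clec7a was at 4.51, 3.46, 2.82, 6.47 and 2.54 CPM in Control and at 82.9, 108, 125, 65.3 and 155 CPM in Ai-α4KO. Ai-α4KO libraries of the tissues covered much the same range. Clec7a had log2 fold changes of 3.30 in iWAT (standard error 0.33, adjusted p = 1.36e-05) and 4.76 in BAT (standard error 0.32, adjusted p = 2.03e-07).

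**Figure D2:**
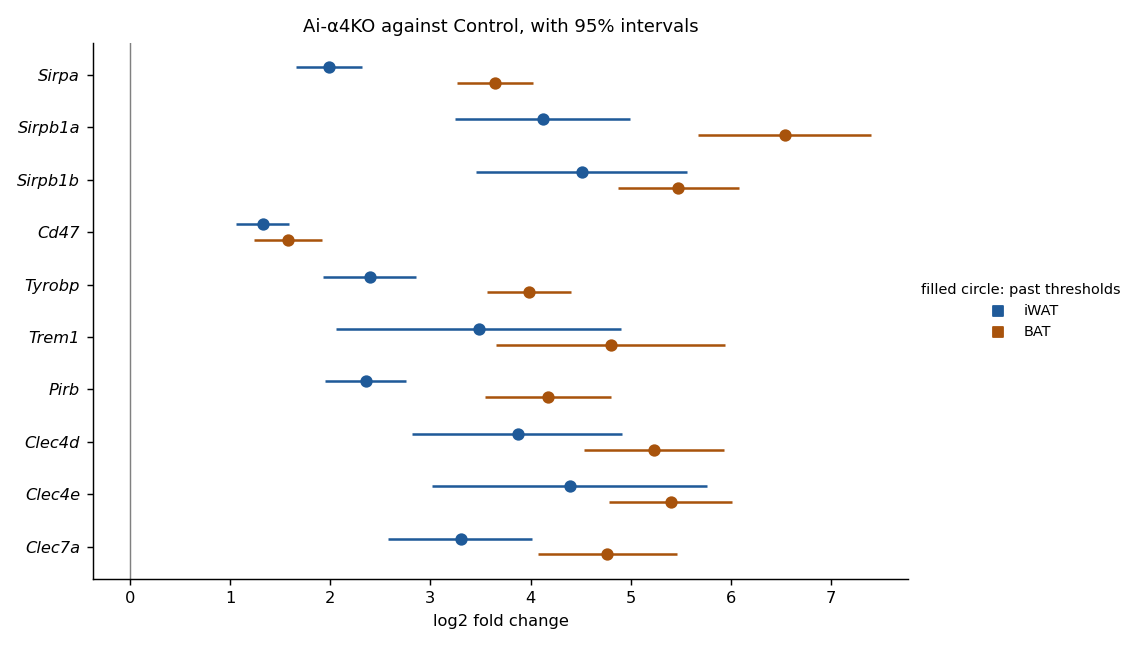
Log2 fold change of each receptor gene in Ai-α4KO against Control libraries, in iWAT (blue) and BAT (brown), with 95% intervals from edgeR's quasi-likelihood fit of 5 against 5 libraries. All 20 values lie to the right of 0, from 1.33 for Cd47 in iWAT to 6.54 for Sirpb1a in BAT.

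In each Ai-α4KO group, at least 1 library was extreme for most of the 10 genes, whereas in Control BAT the highest values and the lowest values were each spread over all 5 libraries. Ai-α4KO BAT replicate 4 was the lowest of its group for all 10 genes, and this library also had the highest skeletal muscle marker sum, 36764 CPM against 11713 to 21869 in the other Ai-α4KO BAT libraries, and the lowest macrophage marker sum, 4429 CPM. Igbp1 was highest there among the Ai-α4KO BAT libraries, at 24.5 CPM against 13.8 to 17.3 in the others, and its part in the low receptor levels was not tested. With a skeletal muscle score added to the BAT fit, all 10 genes were called higher. Trem1, Clec4d and Clec4e rose by 6.29, 5.89 and 6.05 there, in place of 4.8, 5.23 and 5.4. The muscle marker sums did not overlap between the genotypes in BAT, so this fit cannot separate muscle from genotype. Ai-α4KO iWAT replicate 2 was the highest of its group for 8 genes, the exceptions being Cd47 and Pirb, and had the highest neutrophil marker sum, 481 CPM against 139.6 to 300.2 in the others. Neutrophil markers moved with genotype, 4 of 8 tested being higher and 1, Elane, lower in iWAT, and 5 of 6 higher in BAT. Their part in the change of the receptors was not tested.

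In Control iWAT, on the FPKM scale, which divides by transcript length and so allows genes to be ranked by level, Tyrobp was the most abundant of the 10 at 88.5 ± 28.7 FPKM (SD, n = 5). Cd47 (23.5 ± 4.09 FPKM), Sirpa (20.7 ± 5.09 FPKM) and Pirb (17.2 ± 4.23 FPKM) followed with overlapping libraries (SD, n = 5 each). Clec7a (4.37 FPKM), Clec4d (2.13 FPKM) and Clec4e (1.4 FPKM) overlapped in turn, and Sirpb1b, Sirpb1a and Trem1 were lowest at 0.469, 0.444 and 0.365 FPKM. In Ai-α4KO iWAT Tyrobp stood at 508 ± 81.7 FPKM (SD, n = 5), and its libraries did not overlap those of Pirb, the next gene at 96.6 ± 13.2 FPKM. Clec7a (47.0 FPKM), Clec4d (33.8 FPKM) and Clec4e (31.6 FPKM) followed Cd47 (64.2 FPKM), and the libraries of Cd47 and Clec7a overlapped, as they did not in Control iWAT.

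In Control BAT the levels ran from 17.7 ± 4.41 FPKM for Tyrobp (SD, n = 5) to 0.0599 FPKM for Sirpb1a, and Cd47 at 11.9 FPKM overlapped Tyrobp. In Ai-α4KO BAT Tyrobp again stood apart at 338 ± 67.8 FPKM (SD, n = 5), followed by Sirpa (70.1 FPKM), Pirb (52.4 FPKM), Cd47 (43.1 FPKM) and Clec7a (43.1 FPKM). Each of these overlapped its neighbour in the order. Trem1 was the least abundant of the 10 in Ai-α4KO libraries of both tissues, at 4.39 ± 2.90 FPKM in iWAT and 3.48 ± 1.47 FPKM in BAT (SD, n = 5).

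The genotypes were next compared for whether the receptors differed between the tissues. In Control fat all 10 genes had a lower fitted level in BAT than in iWAT, and 5 passed the thresholds, against 15.4% of the 15230 genes tested that were lower in BAT. These 5 were Pirb (log2 difference -2.64, standard error 0.25, adjusted p = 1.14e-07), Sirpb1a (-2.62, standard error 0.49, adjusted p = 1.78e-04), Tyrobp (-2.11, standard error 0.20, adjusted p = 1.44e-07), Sirpa (-1.94, standard error 0.16, adjusted p = 2.94e-08) and Clec7a (-1.52, standard error 0.32, adjusted p = 6.41e-04). With limma Sirpb1a was at -0.43 on log2(FPKM + 1), where it was no longer called (adjusted p = 0.0667), and at -1.71 on log2(FPKM + 0.1). Cd47 differed by -0.76 (adjusted p = 2e-04), under the fold threshold. Trem1, Clec4e, Sirpb1b and Clec4d had values of -1.60, -1.42, -1.26 and -1.25 and adjusted p between 0.0189 and 0.0475. Sirpb1b and Clec4d passed with DESeq2 (-1.28 and -1.27, adjusted p = 0.00751 and 0.00357) and without TMM factors (-1.49 and -1.48, adjusted p = 0.0085 and 0.0082). Limma on log2(FPKM + 1) gave -0.28 for Trem1, -0.59 for Clec4e and -0.31 for Sirpb1b, none called. The Clec4e difference was -0.77 without Control iWAT replicate 2 (adjusted p = 0.152) and -1.92, past the thresholds, without Control iWAT libraries 1 and 4 (adjusted p = 0.00429). For 6 genes, the 5 called and Cd47, every Control BAT library lay below every Control iWAT library, as was the case for 18.8% of all genes tested.

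In Ai-α4KO fat 0 of the 10 genes differed between BAT and iWAT past the thresholds in edgeR and 0 in DESeq2, where 12.6% of all genes tested did so in edgeR. At an unadjusted p below 0.05 there were 3, Cd47 (log2 difference -0.48, 95% interval -0.77 to -0.18), Tyrobp (-0.49, -0.90 to -0.09) and Pirb (-0.79, -1.28 to -0.30), each lower in BAT. The other 7 had values from -0.39 for Clec4e to 0.15 for Clec4d. Their intervals were wide for the low genes, from -1.39 to 0.88 for Trem1, and narrower for Sirpa, from -0.59 to 0.06. For Pirb alone of the 10, the Ai-α4KO libraries of BAT all lay below those of iWAT, as they did for 8.19% of all genes tested. The median over all genes tested was 0.00 in Control and -0.11 in Ai-α4KO.

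**Figure D3:**
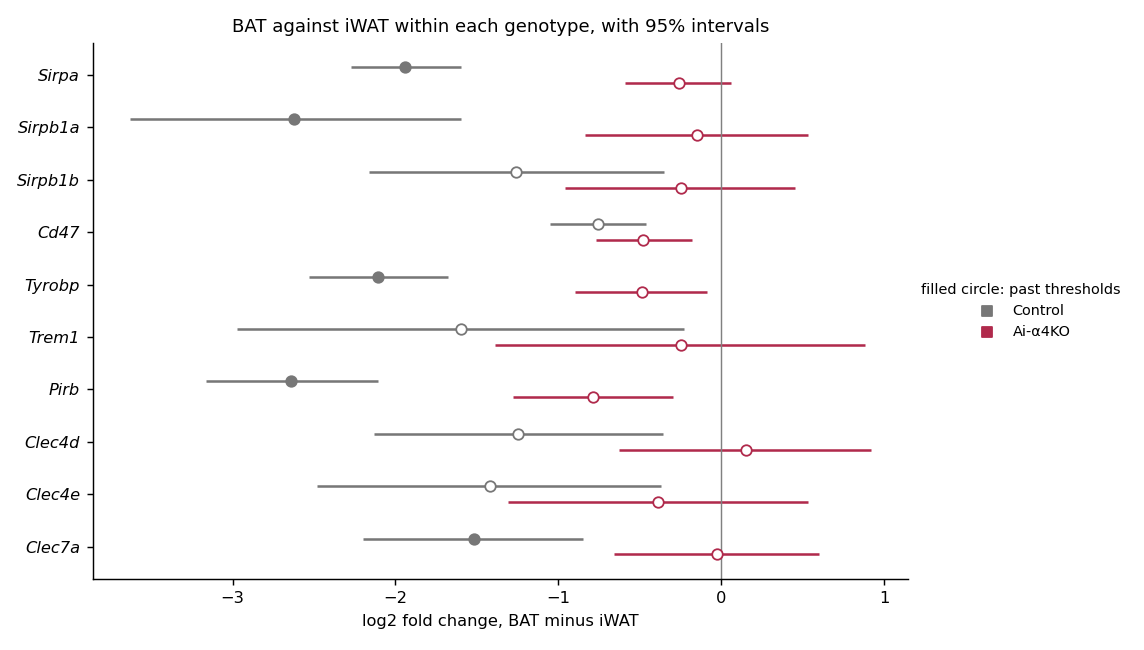
Log2 difference of each receptor gene between BAT and iWAT in Control (grey) and Ai-α4KO libraries (red), with 95% intervals from 1 fit of all 20 libraries; negative values are lower in BAT. The Control values lie between -2.64 and -0.76, and the Ai-α4KO values between -0.79 and 0.15.

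The change with genotype was larger in BAT than in iWAT for 3 of the 10 genes when the difference itself was tested in a fit of all 20 libraries, at an adjusted p below 0.01 that 3.26% of all genes tested passed in this direction. For Pirb the log2 change in BAT exceeded that in iWAT by 1.85 (standard error 0.33, 95% interval 1.15 to 2.54, adjusted p = 0.00171), for Sirpa by 1.67 (standard error 0.22, 95% interval 1.21 to 2.13, adjusted p = 2.33e-04) and for Tyrobp by 1.61 (standard error 0.28, 95% interval 1.03 to 2.19, adjusted p = 0.00127). Sirpb1a, with 12 counts in all in Control BAT, had a difference of 2.46 that missed the threshold (adjusted p = 0.0102), and it passed with DESeq2 (2.57, adjusted p = 5.87e-04), without TMM factors (2.59, adjusted p = 0.00915), with upper-quartile normalization (2.56, adjusted p = 0.00799) and without the filter on low counts (2.54, adjusted p = 0.00921). With limma it was 0.26 on log2(FPKM + 1) (adjusted p = 0.578) and 1.52 on log2(FPKM + 0.1) (adjusted p = 0.0269). The other 6 had differences of 0.28 to 1.49 with adjusted p from 0.0291 to 0.354. Of these, Sirpb1b, Trem1 and Clec4e were at 0.1, 0.09 and 0.22 with limma on log2(FPKM + 1) (adjusted p = 0.897, 0.909 and 0.795). The comparison within Control, that within Ai-α4KO and the interaction use the same libraries and are not separate evidence. The macrophage markers Csf1r, Adgre1 and Cd68 differed in the same direction, by 1.74, 1.79 and 2.15 (adjusted p = 0.00318, 0.00222 and 9e-04).

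Since macrophage markers rose with the receptors, the genes were also compared on a scale set by these markers, the geometric mean of Ptprc, Csf1r, Adgre1, Cd68, Itgam and Lyz2 in each library. This reference was at 145 ± 29.6 CPM in Control and 556 ± 50.2 CPM in Ai-α4KO iWAT, and at 25.5 ± 9.76 CPM in Control and 344 ± 68.8 CPM in Ai-α4KO BAT (SD, n = 5 each). On this scale nearly all genes of the tissue appear lower in Ai-α4KO libraries, 85% of those tested in iWAT and 92.7% in BAT, and 0.863% and 0.739% appear higher. The median over all genes tested was -2.07 in iWAT and -3.88 in BAT. The markers did not move as 1 block, since Csf1r itself changed by -0.99 in iWAT and -1.06 in BAT relative to the reference of which it is part.

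On the macrophage scale Sirpa, Tyrobp and Pirb were not called in either tissue. Sirpa was at 62.6% to 81.7% of the reference in Control iWAT and at 61.4% to 79% in Ai-α4KO iWAT, and its log2 difference was -0.06 in iWAT (95% interval -0.41 to 0.30) and -0.22 in BAT (-0.78 to 0.34). Tyrobp differed by 0.38 in iWAT (0.00 to 0.76) and 0.18 in BAT (-0.37 to 0.72), and Pirb by 0.31 (-0.06 to 0.67) and 0.39 (-0.17 to 0.95). The sign of the Sirpa value in iWAT and of the Tyrobp value in BAT turned with the choice of reference genes. With Csf1r, Adgre1 and Cd68 as the reference, iWAT gave 0.72 for Tyrobp (adjusted p = 0.00431) and 0.65 for Pirb (adjusted p = 0.00813), under the fold threshold.

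Sirpb1a, Sirpb1b, Clec4d and Clec4e rose beyond the reference in both tissues. Sirpb1b was at 0.315% to 0.741% of the reference in Control iWAT and at 1.76% to 5.94% in Ai-α4KO iWAT, a log2 difference of 2.52 (standard error 0.39, adjusted p = 2.59e-05), and differed by 1.64 in BAT (standard error 0.41, adjusted p = 4.05e-04). Sirpb1a differed by 2.11 in iWAT (standard error 0.35, adjusted p = 4.84e-05) and 2.83 in BAT (standard error 0.54, adjusted p = 1.07e-05). Clec4e was at 0.879% to 6.34% of the reference in Control and 7.29% to 26.5% in Ai-α4KO iWAT, a log2 difference of 2.36 (standard error 0.53, adjusted p = 6.92e-04), and differed by 1.52 in BAT (standard error 0.36, adjusted p = 1.87e-04). Its iWAT value was 2.95 without Control iWAT replicate 2 (adjusted p = 6.91e-05). Clec4d differed by 1.90 in iWAT (standard error 0.40, adjusted p = 3.7e-04) and 1.4 in BAT (standard error 0.35, adjusted p = 3.73e-04).

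Clec7a lay at the fold threshold, at 1.21 in iWAT, where it was called (adjusted p = 0.00163), and at 0.99 in BAT, where it was not (adjusted p = 0.00357). Without Ai-α4KO iWAT replicate 2 the iWAT value was 0.94 and no longer called, and the BAT value was called with Csf1r, Adgre1 and Cd68 (1.22, adjusted p = 5.92e-04) or Ptprc alone (1.07, adjusted p = 0.00176) as the reference. Trem1 differed by 1.47 in iWAT (95% interval 0.24 to 2.70, adjusted p = 0.0249) and 0.83 in BAT (-0.19 to 1.86, adjusted p = 0.11), and without Control BAT replicate 1 the BAT value was 1.60 (adjusted p = 0.00414). With Csf1r, Adgre1 and Cd68 as the reference the iWAT value of Trem1 was 1.84 and called (adjusted p = 0.00625). Cd47 went the other way, as did most genes on this scale. The median over all genes tested was -3.88 in BAT and -2.07 in iWAT. Cd47 fell by 2.28 on the log2 scale relative to the markers in BAT (standard error 0.31, adjusted p = 1.39e-08), from 67.7% to 159% of the reference in Control to 20.9% to 38% in Ai-α4KO. In iWAT its value was -0.77 (adjusted p = 0.00103), under the fold threshold.

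**Figure D4:**
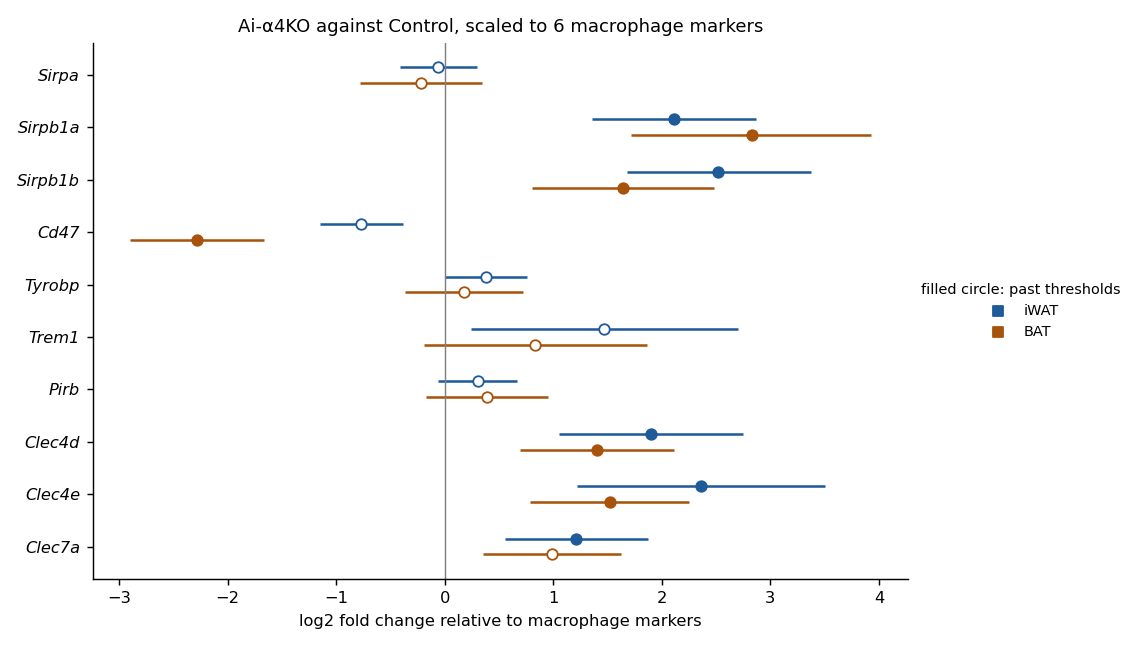
Log2 fold change of each receptor gene in Ai-α4KO against Control libraries after scaling each library to 6 macrophage markers, in iWAT (blue) and BAT (brown), with 95% intervals. Sirpa, Tyrobp and Pirb lie between -0.22 and 0.39, and Sirpb1a, Sirpb1b, Clec4d and Clec4e lie above 0 in both tissues. Cd47 lies below 0, at -2.28 in BAT, where the median over all genes tested is -3.88.

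Across the 20 libraries the expression pattern of Tyrobp, as log2 CPM over 15229 other genes ranked, was most like that of Lyz2 (Pearson r = 0.996) and of C3ar1, Fcgr1 and Fcgr3 (0.994 each), encoding lysozyme, an anaphylatoxin receptor and a pair of IgG receptors. Clec4e was most like Il1b (0.985), Irg1 (0.985), its neighbour Clec4d (0.978), Nlrp3 (0.977) and Fpr1 (0.977), where Il1b encodes interleukin-1β, Nlrp3 an inflammasome sensor and Fpr1 a formyl peptide receptor. Cd47 was most like Pdia3 (0.987), an endoplasmic reticulum chaperone, Gm13212 (0.985), Kif15 (0.984), Trim30a (0.983) and Rap1b (0.981). Among the 10 genes themselves r ran from 0.86 for Cd47 and Trem1 to 0.99 for Tyrobp with Sirpa and with Pirb. These values describe 20 points that fall into 4 groups and share libraries, and no correlation within groups was computed.

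Upstream sequence of the receptors was searched for 4 short motifs of factors active in myeloid cells, on both strands of the 200 bases before the RefSeq start. Of the 10 genes, 8 had an entry, all but Sirpa and Tyrobp. GAGGAAG, a core of PU.1 sites, was found in Pirb, 120 bases before the start, and occurs in 8.84% of 32851 promoters of this length. TTNNGCAA, an outline of C/EBP sites, was found in Clec4e, 66 bases before the start, and occurs in 7.47%. An outline of NF-kB sites, GGG and TTTCC with any 2 bases between them, which 1.18% of promoters hold, and TGANTCA, an outline of AP-1 sites that 5.48% hold, were in none of the 8. The sequences with a match are shown with the match in capitals, for Pirb at chr7:3720383-3720582 and for Clec4e at chr6:123289872-123290071, both on the minus strand of GRCm38.p6.
Pirb: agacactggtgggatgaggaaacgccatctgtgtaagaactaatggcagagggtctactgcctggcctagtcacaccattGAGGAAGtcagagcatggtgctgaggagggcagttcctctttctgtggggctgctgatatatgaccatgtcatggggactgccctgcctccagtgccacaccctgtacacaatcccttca
Clec4e: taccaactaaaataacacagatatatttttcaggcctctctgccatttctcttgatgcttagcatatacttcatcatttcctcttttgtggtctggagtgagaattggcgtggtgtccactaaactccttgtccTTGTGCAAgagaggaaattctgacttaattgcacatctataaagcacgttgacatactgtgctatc
A match is a stretch of letters and not a measured binding site.

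Genes that work with the receptors were examined as lists. The counts below stand beside 11.3% of all genes tested called higher in iWAT and 18.2% in BAT. Of 13 tested partners of the SIRP and CD47 system, 4 rose in iWAT and 6 in BAT, with medians of 0.49 and 0.80. In iWAT these were Sirpb1c, Skap2 (1.48), Fyb, the SLP-76-binding adaptor ADAP (1.86, standard error 0.20), and Cd24a, another anti-phagocytic ligand (1.97, standard error 0.40). In BAT they were Sirpb1c, Fyb (3.82, standard error 0.21), Cd24a (2.62, standard error 0.37), Siglecg (2.29), Qpct (1.38) and Thbs1 (2.21, standard error 0.41), which encodes thrombospondin-1, a secreted ligand of CD47, and had a value of 1.37 in iWAT (adjusted p = 0.0401). Qpctl, the enzyme that modifies CD47 for SIRPα binding, was at 0.00 in iWAT and -0.14 in BAT (adjusted p = 0.992 and 0.483). Of the phosphatases recruited by SIRPα, Ptpn6 (SHP-1), typical of blood cells, rose by 1.59 in iWAT and 3.74 in BAT (standard errors 0.34 and 0.21), while the widely expressed Ptpn11 (SHP-2) had values of -0.09 and -0.53 and passed the thresholds in neither.

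Besides Tyrobp, 3 genes of receptor adaptors were tested. Fcer1g, the γ chain that serves Mincle and MCL, rose by 2.77 in iWAT and 4.25 in BAT (standard errors 0.16 and 0.21), from 15.6 to 359 mean FPKM in BAT. Hcst, which encodes DAP10, an adaptor without an ITAM, was at -0.02 in iWAT (adjusted p = 0.983) and rose by 2.99 in BAT (standard error 0.37). The third, Cd247, of T and NK cells, was not called in either tissue, and T cell markers in Control iWAT ran from 6.58 to 181 CPM.

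In the TREM family and its ligand gene, 1 of 6 tested genes rose in iWAT, near the 11.3% of all genes tested, and 5 of 5 in BAT. Trem3 rose by 2.89 in iWAT and 4.79 in BAT (standard errors 0.66 and 0.57). Trem2, the receptor of lipid-laden macrophages, was at 1.49 in iWAT (adjusted p = 0.061), where its Control libraries ran from 1.85 to 17 CPM, and rose by 4.94 in BAT (standard error 0.26). The difference between tissues for Trem2 was 3.49 (standard error 0.73, adjusted p = 0.00446). Treml2 rose by 4.52, Treml4 by 3.26 and Pglyrp1, which encodes a TREM-1 ligand of neutrophil granules, by 3.72 in BAT, where iWAT gave 0.73, 1.45 and 0.41 (adjusted p = 0.404, 0.0162 and 0.591).

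Of 9 tested genes of the paired immunoglobulin-like receptors, 7 rose in each tissue, with medians of 2.98 in iWAT and 4.38 in BAT. The activating relatives Pira1 (3.93 and 4.88) and Pira2 (2.98 and 4.38) rose along with the inhibitory Pirb, as did Lilrb4a (3.58 and 4.95) and Gp49a (3.63 and 4.98), but Pira1, Pira2 and Pirb, and likewise Lilrb4a and Gp49a, are close relatives in sequence and their separate values are uncertain.

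Of the myeloid C-type lectins other than the 3 described, 13 of 24 tested rose in iWAT and 17 of 22 in BAT, with medians of 1.37 and 3.17. Clec4n, which encodes Dectin-2, had the largest change of the list at 5.13 in iWAT and 6.84 in BAT (standard errors 0.51 and 0.37), from a median of 4.47 to 181 CPM in iWAT. Clec4a2 rose by 3.48 and 4.69, Clec4a4 by 3.19 and 5.09, Clec5a, a DAP12-coupled lectin, by 3.61 and 5.13, and the inhibitory Clec12a by 3.04 and 4.88 in iWAT and BAT. Relative to the macrophage markers 3 of these lectins were higher and 8 lower in iWAT (median -0.70, against -2.07 over all genes tested), and 3 were higher and 9 lower in BAT (median -0.55 against -3.88). Clec4n on this scale was higher by 3.15 in iWAT and 2.90 in BAT (adjusted p = 2.14e-06 and 4.06e-09).

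Of 18 genes of Syk, Card9 and phosphatase signalling, 13 rose in iWAT and 15 in BAT, with medians of 1.67 and 3.14. Syk rose by 1.34 and 3.12 (standard errors 0.26 and 0.29) and Card9 by 2.30 and 2.62 (standard errors 0.15 and 0.24) in iWAT and BAT. The Card9 partners, which many cell types express, moved less, with Bcl10 at 0.99 and 0.87, under the fold threshold, and Malt1 at 0.43 in iWAT (adjusted p = 0.055) and called in BAT, where its fold was at the threshold (adjusted p = 1.51e-04). Large changes were those of the Src-family kinase Fgr (3.43 and 5.09), Lcp2 (2.58 and 4.13) and Lat2 (1.93 and 4.10), the first values in iWAT and the second in BAT.

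Of 20 other myeloid receptors tested, 16 rose in iWAT and 18 in BAT. The 3 largest changes in iWAT were those of Pilra (3.66), Cd300lf (3.55) and Cd200r4 (3.44), and the 3 largest in BAT those of Cd300lf (5.65), Cd200r4 (5.58) and Siglecf (5.50). Cd300lg, a member of this list known from endothelial cells, fell by 1.69 in BAT and was at -0.91 in iWAT, under the fold threshold.

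**Figure D5:**
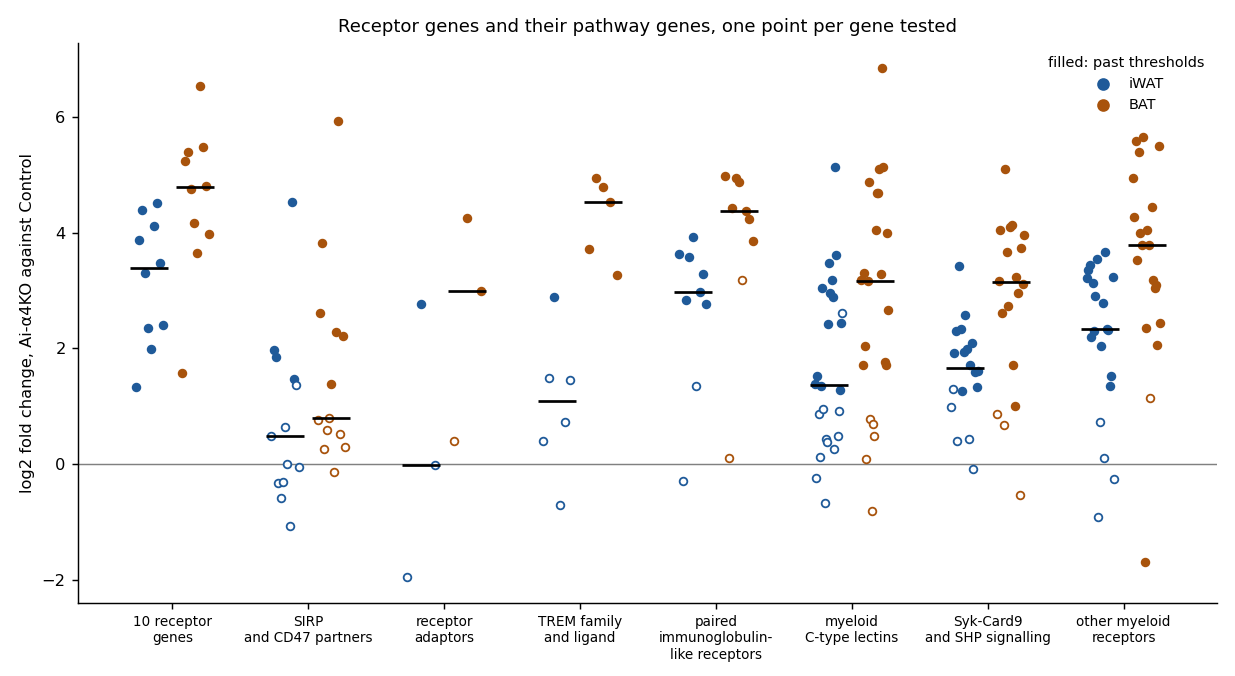
Log2 fold change in Ai-α4KO against Control of every tested gene of the 10 receptors and the 7 lists of related genes, in iWAT (blue) and BAT (brown), 1 point per gene with filled points past the thresholds and bars at the medians. The medians of the 10 receptors are 3.39 and 4.78, and the medians of the lists are higher in BAT than in iWAT.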

How the data were processed

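RNA of 20 libraries was read by the authors as paired 150 bp reads of stranded mRNA libraries (TruSeq), and the submitters' processing notes name bcl2fastq 2, STAR 2.5.3a and mm10. The counting tool, the annotation and the normalization are not given in the sources used here. The authors deposited an expected count per gene and library, without normalization, 76.6% of the nonzero ones exactly whole, with no tolerance, and an FPKM value per transcript width and library total. Depth was 24023371 to 50384446 counts. Counts were rounded and tested in R 4.3.3 with edgeR 4.0.16 (filterByExpr, TMM, glmQLFit, Benjamini-Hochberg), within each tissue for genotype and over all 20 libraries for interaction and tissue. CPM used TMM factors over all 20 libraries, so ratios of CPM can differ slightly from fitted folds. Log2 CPM used a prior count of 2. The macrophage scale replaced the TMM-scaled totals by the geometric mean of 6 markers. Changed meant an adjusted p below 0.01 and a fold of at least 2, without the fold for the interaction. The 10 genes, the lists and the tests were chosen with earlier results of these data known. Named genes are the 10, Igbp1, the 3 largest changes of each list and tissue, and fixed partners, and a few genes that these rules select are not reported here. Skap2, Siglecg, Qpct, Treml4, Cd247, Cd300lg and the macrophage and neutrophil markers given singly were named after their values were seen. Alternatives were DESeq2 1.42.0, limma 3.58.1 on log2(FPKM + 1) and log2(FPKM + 0.1), other normalizations, filters, thresholds and references, a replicate block and leaving out libraries. The tests were run on simulated data first. No 2 libraries had identical counts. Intervals of counts cover counting error only. Sequences are from RefSeq (GRCm38.p6) and GENCODE M21.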

Additional observations from a re-analysis of the deposited data

Results flagged for a closer look

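The level of Pirb in Control BAT replicate 4 was 15 CPM, and the nearest of the other 4 Control BAT libraries was at 7.74 CPM. The gap was 0.773 of the range of the group, above the critical value of 0.71 for 5 libraries. It was the only such case among the 40 combinations of gene and group examined, where chance gives about 5%. The same library had the highest macrophage marker sum of its group, 640.3 CPM against 267 to 455 in the others. The part of these markers in the Pirb level was not tested.

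The change of Sirpa, Tyrobp and Pirb with genotype was larger in BAT than in iWAT, by 1.67, 1.61 and 1.85 on the log2 scale, by the interaction term of edgeR's quasi-likelihood fit (adjusted p = 2.33e-04, 0.00127 and 0.00171). The Control libraries of each gene were lower in BAT than in iWAT without overlap. The difference in Ai-α4KO libraries was smaller, at -0.26, -0.49 and -0.79. Those of Sirpa and Tyrobp overlapped between the tissues, and those of Pirb did not.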

How the results depend on the processing

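All 10 genes remained called higher in each tissue under every alternative that could test them, which includes each normalization, DESeq2, limma on FPKM, the replicate block and each library left out (lowest 10 and highest 10). With at least 10 counts required in every library, 8 could be tested in iWAT and 7 in BAT, and all of these were called. Leaving out 1 library gave 3 to 4 genes with an interaction (3 with all libraries), 5 to 7 different between the Control tissues (5), 0 between the Ai-α4KO tissues (0), 4 to 5 called on the macrophage scale in iWAT (5) and 5 to 7 in BAT (5). For Igbp1 the iWAT range was -2.76 to -2.62, and the BAT range -2.64 to -2.44. The genes with an interaction rose to 5 at an adjusted p below 0.05 and to 5 with DESeq2, Sirpb1a and Clec7a being added in both, and Sirpb1a passed in 5 of the 20 fits without 1 library. The genes different between Control tissues rose to 9 at an adjusted p below 0.05, to 7 with DESeq2 and to 7 without TMM factors. With limma on log2(FPKM + 1) Sirpb1a was at -0.43 and no longer called. The count on the macrophage scale in BAT fell to 3 with at least 10 counts in every library, by construction, since 7 genes could be tested. On this scale Sirpa in iWAT turned from -0.06 to 0.04 without Control iWAT libraries 1 and 4, to 0.27 with Csf1r, Adgre1 and Cd68 as the reference, and to 0.00 without Control iWAT replicate 4, and its range without 1 library began at -0.12. Tyrobp in BAT turned from 0.18 to -0.04 with a reference without Csf1r, an alternative chosen after seeing the data. Clec7a in iWAT was at 0.94 without Control iWAT libraries 1 and 4 and 0.95 with Ptprc alone, and was no longer called. In BAT it was called under 2 references and in 4 of the 10 fits without 1 library. Limma on log2(FPKM + 1) gave smaller changes for the low genes, in iWAT and BAT 2.98 and 3.08 for Sirpb1b, 1.86 and 1.95 for Trem1 and 3.78 and 4.0 for Clec4e, and 4.3 for Clec4d in BAT. The cause of these changes was not tested. Low counts limit Sirpb1a, Sirpb1b and Trem1 in Control BAT.

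Whether replicate numbers pair the libraries is not settled. The deviations of same-numbered libraries from their group means correlated at -0.45 to 0.24 over all pairs of groups compared. Between the tissues of a genotype they correlated at -0.26 to 0.24, and correlations of this size cannot decide it. With the replicate block, 2 genes had an interaction and Pirb was at 1.88 and no longer called, 6 genes were called on the macrophage scale in iWAT, where Trem1 was added at 1.62, and no other call changed. With 5 numbers, some libraries correlated best with their own number and others did not.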
